A study of Mus musculus with 6 samples.

Results

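The DNA replication and S phase genes examined here are 38 named genes for origin licensing, the replicative helicase, the polymerases, the clamp and its loader, nucleotide supply and S phase entry. They were taken by name from a deposited FPKM table of 27151 mouse Ensembl gene IDs, and 38 of 38 were found in it. FPKM scales a gene's fragments to its exon length and to the size of the library, so levels of different genes can be compared per length. The RNA came from 3 GSK4112 and 3 control libraries of cultured granulosa cells of the mouse ovary, which line the follicle around the egg. All cells were collected by follicle puncture in a milrinone-containing solution, grown for 24 h with serum, kept serum-free for 12 h, and then held for 24 h with or without GSK4112, with new medium every 12 h. GSK4112 is a small-molecule agonist of the clock repressor NR1D1 (REV-ERBα). The labels give no genotype, strain, age or vehicle, and do not say whether the 3 libraries of a group came from separate cultures. The spread behind a p-value is that between libraries or, with the replicate number as a block, that of the differences within replicate numbers. Either could be technical.

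DNA replication is prepared in G1, when the origin recognition complex with CDC6 and CDT1 loads the ring of MCM2 to MCM7 onto DNA, and geminin blocks CDT1 after S phase has begun. CDC45 and the GINS complex then turn the ring into a moving helicase, and polymerase alpha with primase, polymerase delta and polymerase epsilon copy the strands while PCNA, loaded by RFC, clamps them to the template. Most of these genes are transcribed at the G1 to S boundary by E2F factors, which RB-family proteins hold back until cyclin-dependent kinases act. Granulosa cells divide as follicles grow and leave the cycle when they luteinize. Serum withdrawal is a standard way to slow cultured cells before S phase.

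RefSeq promoter windows, 250 bases before to 50 after a start site, were at hand for 30 of the 38 genes (35 windows). They were searched on both strands for 3 elements known from cell-cycle promoters, and the letters found are a description and not shown to be bound. The E2F element was written as TTTCCCGC, TTTCGCGC, TTTGCCGC or TTTGGCGC, and 13 of the 35 windows held it (37.1%), against 744 of all 32851 windows (2.3%). The CCAAT box, CCAAT, was in 20 of the 35 windows (57.1%) and in 37.4% of all windows. The CHR element, TTTGAA, was in 4 of the 35 (11.4%) and in 17.9% of all windows. The 200 bases before the RefSeq start are shown for 4 of the genes called lower below with the replicate number as a block. They are also shown for Pcna, the most abundant member, which was not lower. The gene coordinates given below follow GENCODE, which starts Mcm7, Pcna and Rrm2 further upstream. By these the Mcm7 stretch lies wholly, and those of Pcna and Rrm2 partly, within the gene. Capitals mark E2F and CCAAT matches, which can overlap, as where an E2F match on each strand shares bases in Mcm5 and Mcm6.
Mcm5 (GRCm38.p6, chr8:75109309-75109508, plus strand): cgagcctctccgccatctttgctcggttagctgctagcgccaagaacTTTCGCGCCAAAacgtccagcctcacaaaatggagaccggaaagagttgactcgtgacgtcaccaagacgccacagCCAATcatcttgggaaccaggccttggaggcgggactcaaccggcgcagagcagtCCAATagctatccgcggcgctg
Mcm6 (GRCm38.p6, chr1:128359706-128359905, minus strand): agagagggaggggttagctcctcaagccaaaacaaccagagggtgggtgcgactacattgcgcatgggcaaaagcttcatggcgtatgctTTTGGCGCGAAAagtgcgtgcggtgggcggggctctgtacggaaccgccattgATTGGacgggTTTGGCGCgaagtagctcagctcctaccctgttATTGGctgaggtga
Mcm7 (GRCm38.p6, chr5:138171884-138172083, minus strand): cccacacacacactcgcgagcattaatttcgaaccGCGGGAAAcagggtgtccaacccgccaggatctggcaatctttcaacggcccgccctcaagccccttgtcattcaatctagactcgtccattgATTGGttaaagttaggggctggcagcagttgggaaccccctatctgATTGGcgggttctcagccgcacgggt
Rrm2 (GRCm38.p6, chr12:24708054-24708253, plus strand): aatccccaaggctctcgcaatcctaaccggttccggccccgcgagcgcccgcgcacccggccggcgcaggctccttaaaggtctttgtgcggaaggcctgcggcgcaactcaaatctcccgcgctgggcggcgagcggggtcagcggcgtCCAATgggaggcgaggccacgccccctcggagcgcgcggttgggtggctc
Pcna (GRCm38.p6, chr2:132253181-132253380, minus strand): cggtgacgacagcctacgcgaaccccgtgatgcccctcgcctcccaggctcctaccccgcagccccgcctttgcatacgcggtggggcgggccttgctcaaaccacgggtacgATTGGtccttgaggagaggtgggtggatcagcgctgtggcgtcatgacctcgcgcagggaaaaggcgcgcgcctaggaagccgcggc
E2F letters lay before the start in Mcm5 and Mcm6, on both sides of it in Mcm7, and after it in Mcm3 (bases 19 to 26 and 38 to 45, with the start as 0). In the windows of Rrm2 and Pcna only CCAAT letters matched. Of the 30 genes with a window 13 held E2F letters, and 5 of these (Mcm3, Mcm5, Mcm6, Mcm7 and Uhrf1) were called lower with the block. Orc1, Rfc3, Lig1, Pold1, Gins3, Cdt1, Cdc6 and Pola1 held them and were not called. In Uhrf1 E2F letters lay only in a window inside the GENCODE gene (chr17:56304063-56304362), and its window further upstream held only CCAAT letters. Another Mcm7 window (chr5:138171217-138171516) held no E2F letters. The log2 differences of Orc1 (0.06) and Gins3 (0.03) were above 0. Whether E2F letters go with a lower level was not tested.

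The libraries held 16559257 to 18158282 fragments, as read from the FPKM steps, and a member had between 8 and 4707 fragments in a library. Of the 38 genes, 37 passed the filter of a mean FPKM of at least 1 and 30 were at or above 1 in every library. Of the other 7 that passed, Mcm10, Cdc6, Pole and Ccne1 reached 1 only in the replicate 1 libraries and passed through these. Orc1, Prim1 and Gins3 were below 1 in fewer libraries. Fen1, the flap endonuclease gene, was the member below the filter. Fen1 was at 0.464, 0.199 and 0.356 FPKM in GSK4112 replicates 1, 2 and 3 and at 0.409, 0.335 and 0.273 in control replicates 1, 2 and 3. Other annotated genes, chiefly Gm10143 on the opposite strand, overlap 84.2% of its exon length, and no source used here gives the strand setting of the counting, so this level is uncertain. The same holds for Gins2, of whose exon length 67.3% is overlapped by Gse1. In 10 of the 38 genes at least 20% of the longest transcript matched another gene, among them Uhrf1 (44.3%, Gm5648) and Rrm2 (27.9%, Gm48445 or Gm48455).

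As a sum, levels of the 38 genes differed more between replicate numbers than between treatments. In 35 of 38 genes (34 of the 37 tested, against 28.0% of all genes tested) the replicate 1 library was the highest of its group in both groups. In 34 of 38 both replicate 1 libraries lay above all 4 others. Summed over the 38 genes, the level was 355, 169.9 and 173 FPKM in GSK4112 replicates 1, 2 and 3, against 458, 228 and 210.25 FPKM in control replicates 1, 2 and 3. Replicate 1 thus held 2.07 times the mean of the other libraries in GSK4112 and 2.09 times in control. Of the 37 genes tested, 18 were at least 2 times higher in replicate 1 than in the mean of the others in both groups, and of all 12181 genes tested 2.91% were. A larger share of cells in S phase and more of these mRNAs per cell cannot be told apart in bulk RNA.

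Within that pattern the genes differed in steepness. Pole (5.68 times in GSK4112 and 3.64 times in control), Rrm2 (5.96 and 4.26), Uhrf1 (4.83 and 3.82) and Cdc6 (4.10 and 3.93) were among the steepest. Among the flattest were Rfc3 (0.950 and 1.29), Rfc2 (1.078 and 1.32), Orc6 (1.15 and 1.50) and Mcm7 (1.32 and 1.46). As a sum, a list of 20 mitosis genes was at 5.16 times in GSK4112 and 3.84 times in control. That was steeper than the sum of the 38 genes (2.07 and 2.09) but not than Rrm2.

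Sums of some cell type markers also differed between the replicate 1 libraries and the others, but the genes of a list did not all move alike. Markers of theca and stroma, of which 3 of 7 had a mean of at least 1 FPKM, summed to 145, 77.6 and 89.7 FPKM in GSK4112 and to 266, 58.1 and 60.6 in control, most of it Acta2. None of the 7 was at 0 in every library, but Cyp17a1, which defines theca cells, did not exceed 0.0555 FPKM. Ptch1 of the same list was lowest in replicate 1 of both groups, where Acta2 and Col1a1 were highest. Granulosa markers, 8 of 10 at a mean of at least 1, summed to 2102, 2797 and 3003 FPKM in GSK4112 and to 2796, 3445 and 3329.8 in control, with Inha, Gja1 and Foxl2 high and Amh and Cyp19a1 below 1 in every library. This sum was mostly Inha. In replicate 1 of both groups Inha, Foxl2, Fshr and Nr5a2 were lowest, Wt1 and Hsd17b1 were highest, and Gja1 and Cyp11a1 had no common order. Endothelial markers (4 listed) summed to 0.485 to 0.815 FPKM in GSK4112 and 0.582 to 0.878 in control, and oocyte markers (4 listed) to 0.0995 to 1.12 and 0.109 to 2.22. Leukocyte markers (4 listed, 1 with a mean of at least 1) summed to 5.14 to 6.88 in GSK4112 and 2.51 to 5.32 in control. The part of other cells in the replicate 1 pattern was not tested.

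**Figure D1:**
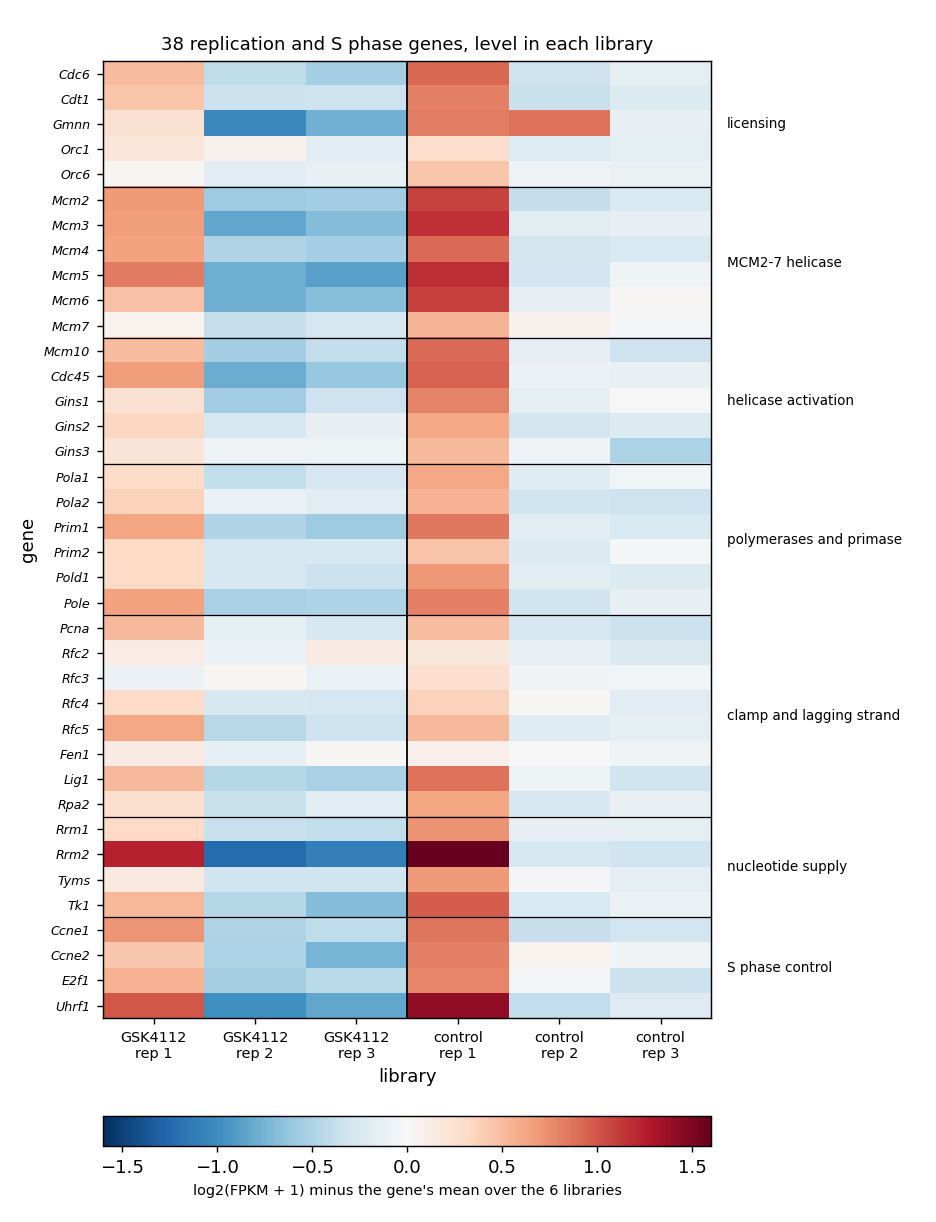
Levels of the 38 genes in each library, as log2(FPKM + 1) minus the gene's mean over the 6 libraries, with GSK4112 libraries on the left and genes in rows grouped by role. Red (above the mean) fills both replicate 1 columns but for the GSK4112 value of Rfc3, with those of Orc6 and Mcm7 near 0, and Rfc2, Rfc3, Orc1, Orc6 and Fen1 vary little.

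The comparison of GSK4112 with control asks whether replication genes differ after the agonist. Set against the spread between libraries, none of the 37 genes tested was called in limma at an adjusted p under 0.05, lower or higher, where 0.624% of all genes were called lower and 0.410% higher. At an unadjusted p under 0.05, 1 of the 37 was lower (Gmnn), as were 6.21% of all genes, and limma-voom on the recovered fragments also called 0 of 37. The groups overlapped in 38 of 38 genes, whereas 7.90% of all genes had every GSK4112 value below every control value and 15.7% had every one above. Another scaling, by medians of ratios, called 39 genes higher and 105 lower over all genes, against 50 and 76, and still none of the 37. The median log2 difference of the 37 was -0.28, against 0.05 over all genes, and 32 of them were below 0, as were 39.1% of all genes. The median moved with the replicate 1 libraries. It was 0.05 with 14 of 37 below 0 without control replicate 1, -0.52 with 36 of 37 below 0 without GSK4112 replicate 1, and -0.24 with 30 of 37 below 0 without both.

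Compared within replicate numbers, the genes lay lower with GSK4112. In 28 of 37 genes the GSK4112 library was the lower in each of 3 same-numbered pairs, as in 18.6% of all genes, and 1 (Pcna) was higher in each, as in 29.8% of all genes. With the replicate number as a block, 7 of 37 fell (Mcm3, Mcm5, Mcm6, Mcm7, Rrm2, Uhrf1 and Ccne2) and 0 rose, where 3.82% of all genes were called lower and 3.07% higher. Replicates 2 and 3 alone, with no pairing, gave 5 falls (Mcm3, Mcm5, Mcm6, Rrm2 and Uhrf1) and no rise, with 3.80% of all genes lower and 3.23% higher. The block on those 4 libraries gave 8 falls and no rise (5.20% of all genes lower, 4.15% higher), adding Cdc45 and Gmnn to the 7 and losing Mcm7. The block with median-of-ratios scaling called the same 7 (4.48% of all genes lower, 1.97% higher). The block with limma-voom called 9 lower, Gmnn and Tk1 besides the 7 (5.93% lower, 5.59% higher). In those 4 libraries 28 of 37 genes had both GSK4112 values below both control values, as did 21.2% of all genes, and 3 had them above, as did 35.0%. No label pairs the libraries, and with the block but without both replicate 3 libraries 0 of 37 and 0 of all 12181 genes were called (at an unadjusted p under 0.05, 17 of the 37 were lower, and 2851 of all genes differed in either direction).

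**Figure D2:**
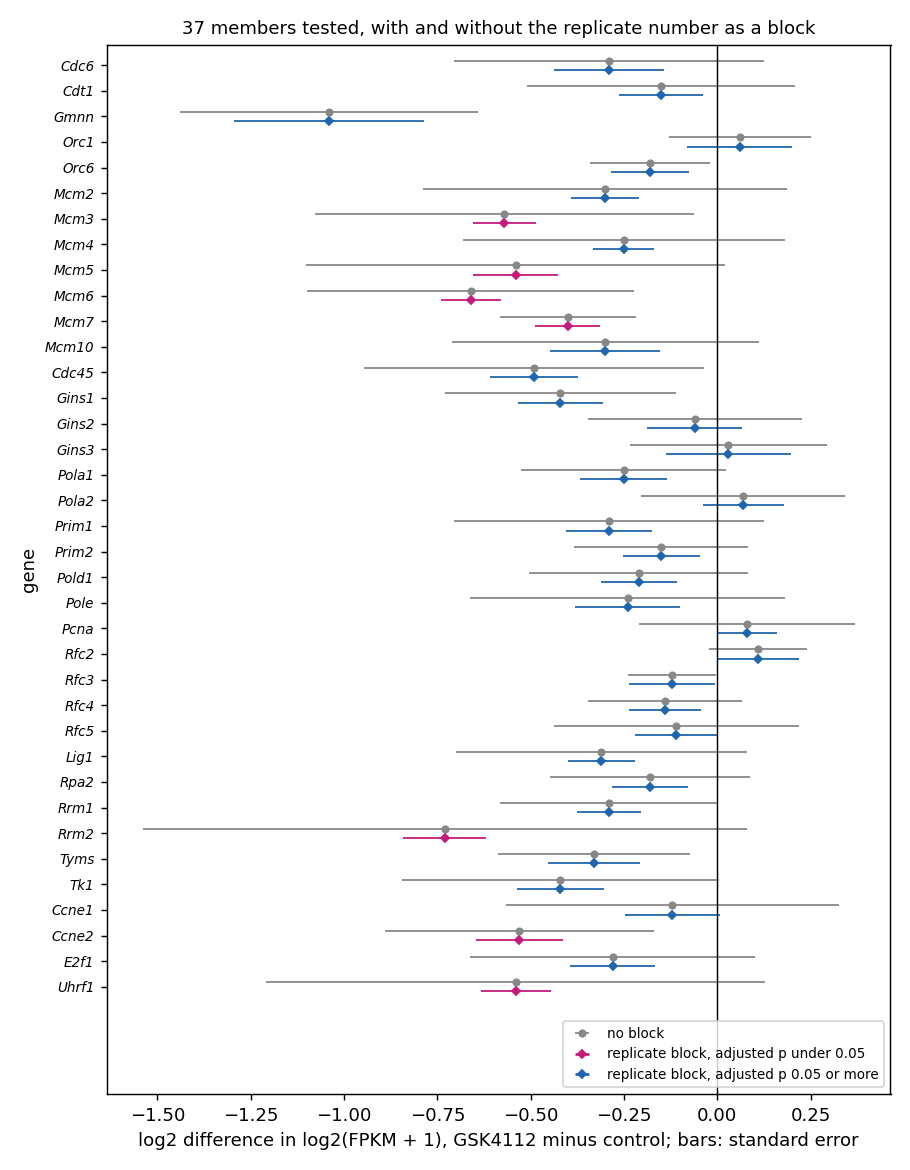
Log2 difference in log2(FPKM + 1), GSK4112 minus control, of the 37 genes tested, with standard errors of limma without a block (grey circles) and with the replicate number as a block (diamonds, pink where the adjusted p was under 0.05). The estimates are the same in both fits, and the errors shrink with the block most in genes that are steep between replicates, such as Rrm2.

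The MCM2-7 genes, which encode the ring-shaped motor of the replicative helicase, were the most uniform group. With the block 4 of 6 fell, without it 0 of 6, and 6 of 6 were lower in each pair. Their summed level was 92.4, 41.0 and 42.5 FPKM in GSK4112 replicates 1, 2 and 3, against 128, 57.6 and 59.6 FPKM in control, which is 0.720, 0.711 and 0.713 of control within the pairs.

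Mcm6 (chromosome 1, 128331590 to 128359664, minus strand, GRCm38) stood at 15.1, 5.76 and 6.20 FPKM in GSK4112 replicates 1, 2 and 3, against 23.8, 9.62 and 10.7 FPKM in control replicates 1, 2 and 3. It was lower in each pair, by a similar factor at high and low levels, and replicate 1 made the groups overlap. Its log2 difference was -0.66 ± 0.0810 with the block (SE, adjusted p = 0.0107) and -0.66 ± 0.438 without (adjusted p = 0.490). Mcm3 (chromosome 1, 20802968 to 20820312, minus strand) was at 16.2, 5.09 and 5.67 FPKM in GSK4112 libraries and at 23.3, 8.62 and 8.89 FPKM in control libraries. Its difference was -0.57 ± 0.0848 with the block (adjusted p = 0.0181), and without it the adjusted p was 0.605. For Mcm5 (chromosome 8, 75109569 to 75128439, plus strand) the levels were 11.3, 3.04 and 2.81 FPKM with GSK4112 and 14.7, 4.60 and 5.61 FPKM in control. GSK4112 replicates 2 and 3 were the lowest of the 6 libraries for both genes. The Mcm5 difference was -0.54 ± 0.114 with the block (adjusted p = 0.0450) and its adjusted p without was 0.668. The Mcm5 call was lost in the block fit without both replicate 2 libraries (adjusted p = 0.0521) or both replicate 3 libraries (0.139). Without both replicate 3 libraries Mcm3 (0.105) and Mcm6 (0.0896) lost theirs as well.

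Mcm7 (chromosome 5, 138164583 to 138172422, minus strand) was the most abundant of the 6 and the flattest between replicates. It had 21.2, 15.5 and 16.5 FPKM in GSK4112 libraries, against 30.2, 21.3 and 20.04 FPKM in control libraries, so that only GSK4112 replicate 1 reached the control range. The block gave -0.40 ± 0.0869 (adjusted p = 0.0494), and the fit without it an adjusted p of 0.337. With any 1 pair left out of the block fit Mcm7 lost its call (adjusted p of 0.115 to 0.162). Part of its longest transcript (81.2%) matches Ap4m1, which overlaps it, or Gm5487 at 95% identity or more, so its level is less certain. The subunits Mcm2 and Mcm4 did not pass, although both were lower in each pair (ratios of 0.743, 0.849 and 0.767 for Mcm2 and of 0.821, 0.863 and 0.797 for Mcm4). The ratio of Mcm7 to Mcm2 was 1.85, 3.66 and 3.85 in GSK4112 libraries and 1.95, 4.27 and 3.58 in control libraries, so these subunits were closest in level in replicate 1.

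**Figure D3:**
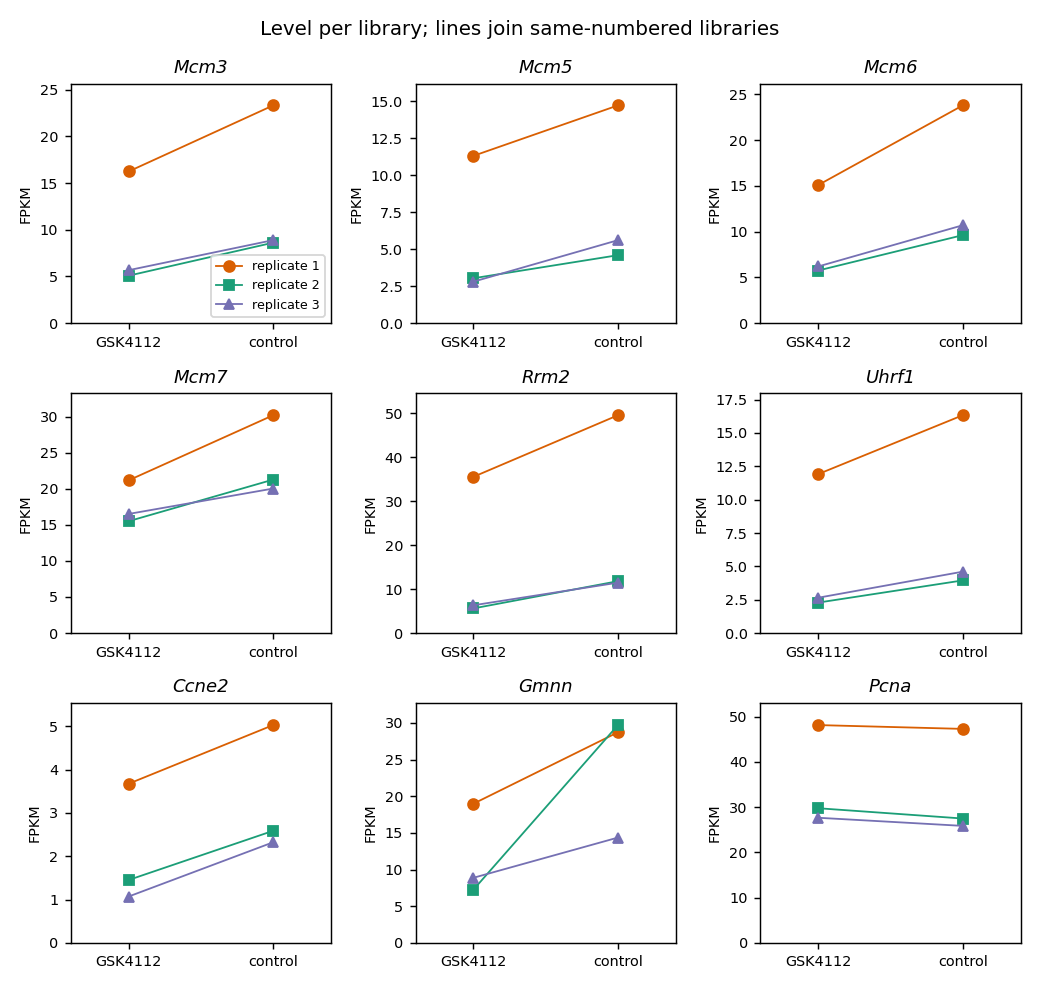
FPKM of 9 genes in each library, with GSK4112 on the left and control on the right of each panel and lines joining libraries of the same replicate number. Replicate 1 (circles) lies above the others in 8 panels at both ends, the lines slope down towards GSK4112 in every panel but that of Pcna, and the exception to the replicate order is Gmnn, where control replicate 2 (29.7) is as high as control replicate 1 (28.7).

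Of the 5 licensing genes none passed in either fit. Gmnn, which encodes the CDT1 inhibitor geminin, had the largest difference of the 37 genes: it was at 19.0, 7.25 and 8.87 FPKM with GSK4112 and at 28.7, 29.7 and 14.4 FPKM in control. Its control replicates 2 and 3 differed by a factor that no other member showed between them, and every GSK4112 value but that of replicate 1 lay below all control values. The log2 difference was -1.04 ± 0.254 with the block (adjusted p = 0.0654) and -1.04 ± 0.398 without (adjusted p = 0.260). With the block it was called without both replicate 1 libraries (adjusted p = 0.00182) and without both replicate 2 libraries (0.0240). The ratio of Gmnn to its partner Cdt1 was 3.28, 2.47 and 2.99 in GSK4112 libraries and 3.72, 10.3 and 4.39 in control libraries.

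Cdt1 itself was at 0.749, 1.02 and 0.907 of control in pairs 1, 2 and 3. Orc6, a subunit of the origin recognition complex, was at 8.36, 7.09 and 7.41 FPKM in GSK4112 and at 11.4, 7.72 and 7.498 FPKM in control (log2 difference -0.18, adjusted p = 0.346 with the block). It thus lay near 7 to 8 FPKM in every library but control replicate 1, with GSK4112 replicate 1 next. Orc1, the subunit whose level varies through the cycle, showed no common direction (0.905, 1.43 and 0.974 of control), and Cdc6, the loader that joins it, was below control in each pair (0.665, 0.872 and 0.465).

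The 5 genes that turn the loaded ring into a helicase gave no call in either fit. Cdc45, the factor that joins the MCM ring to the fork, had 6.02, 1.56 and 1.92 FPKM in GSK4112 libraries, against 7.53, 3.14 and 3.07 FPKM in control libraries. It was lower in each pair (-0.49 ± 0.1175, adjusted p = 0.0629 with the block and 0.627 without). Gins1, a subunit of the GINS complex, was at 2.81, 1.195 and 1.56 FPKM with GSK4112 and at 4.58, 1.87 and 2.22 FPKM in control (adjusted p = 0.0816 with the block). It was at 0.614, 0.638 and 0.701 of control in pairs 1, 2 and 3. Its partners in the same complex were lower in pair 1 as well but not in each of the others, with 0.773, 1.01 and 1.10 of control for Gins2 and 0.737, 0.971 and 1.74 for Gins3. Differences between subunits were not tested. Mcm10, which helps start the helicase, was at 0.671, 0.453 and 0.885 of control on levels of 0.393 to 2.82 FPKM.

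None of the 6 polymerase and primase genes passed, and their summed level was 0.825, 0.978 and 0.917 of control in the pairs. Pola2, the B subunit of polymerase alpha, was the most abundant, at 11.1, 7.72 and 7.37 FPKM in GSK4112 and 12.8, 6.50 and 6.47 FPKM in control. It lay below control in pair 1 and above it in pairs 2 and 3 (log2 difference 0.07, adjusted p = 0.743 with the block). Pold1, the catalytic subunit of polymerase delta, had 6.17, 3.72 and 3.54 FPKM with GSK4112 and 8.32, 4.14 and 3.93 FPKM in control (adjusted p = 0.263). The other 4 (Pola1, Prim1, Prim2 and Pole) were lower in each pair, with log2 differences between -0.29 and -0.15.

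The clamp, clamp loader, RPA and lagging-strand genes were close to control as a sum (0.928, 0.977 and 1.03 in the pairs), and 0 of 7 tested passed. Pcna (chromosome 2, 132249162 to 132253314, minus strand), the sliding clamp and the most abundant of the 38 genes, was at 48.1, 29.7 and 27.6 FPKM in GSK4112, against 47.3, 27.5 and 25.8 FPKM in control. It carried the replicate 1 difference yet was slightly above control in each pair, with a log2 difference of 0.08 ± 0.0800 with the block (adjusted p = 0.590). Of its longest transcript 51.4% matches Pcna-ps2, listed at 14.5, 10.4 and 11.4 FPKM in GSK4112 and 17.6, 13.1 and 10.5 FPKM in control, so fragments of both loci may be mixed. Lig1, the ligase that joins Okazaki fragments, was at 11.1, 5.16 and 4.93 FPKM with GSK4112 and at 14.5, 7.004 and 5.79 FPKM in control. It was lower in each pair (-0.31 ± 0.0890, adjusted p = 0.0956 with the block). Rfc2, a clamp loader subunit, had the largest positive difference of the 37, with 7.65, 6.48 and 7.72 FPKM in GSK4112 and 8.01, 6.33 and 5.79 FPKM in control. That difference was 0.11 ± 0.110 with the block (adjusted p = 0.574), smaller than the spread within either group. Rfc3, Rfc4, Rfc5 and Rpa2 had log2 differences between -0.18 and -0.11.

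All 4 nucleotide supply genes were lower in each pair and 1 of 4 fell with the block. Rrm2 (chromosome 12, 24708241 to 24714146, plus strand), the S phase subunit of ribonucleotide reductase, was at 35.5, 5.601 and 6.31 FPKM in GSK4112 and at 49.5, 11.8 and 11.5 FPKM in control. Both replicate 1 libraries stood far above the rest, and in replicates 2 and 3 the GSK4112 level was 0.475 and 0.551 of control. The log2 difference was -0.73 ± 0.112 with the block (adjusted p = 0.0199) and -0.73 ± 0.809 without (adjusted p = 0.689). With 1 library left out of the fit without the block it ran between -1.53 (without GSK4112 replicate 1) and -0.06 (without control replicate 1). In the block fit without both replicate 3 libraries the Rrm2 call was lost (adjusted p = 0.1285). Rrm1, its partner subunit, was at 17.7, 10.7 and 10.4 FPKM with GSK4112 and at 23.5, 12.7 and 12.4 FPKM in control (-0.29 ± 0.0846, adjusted p = 0.101 with the block). The ratio of Rrm2 to Rrm1 was 2.01, 0.525 and 0.606 in GSK4112 libraries and 2.10, 0.929 and 0.924 in control libraries: it was alike in replicate 1 and lower with GSK4112 in replicates 2 and 3, a difference not tested. Tk1 and Tyms, for thymidine nucleotides, were at 0.701, 0.817 and 0.553 and at 0.628, 0.731 and 0.842 of control and did not pass.

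Among the 4 genes of S phase control 2 fell with the block. Uhrf1 (chromosome 17, 56303321 to 56323486, plus strand), which brings the maintenance methyltransferase to new DNA, was at 11.9, 2.28 and 2.65 FPKM in GSK4112 and at 16.3, 3.94 and 4.60 FPKM in control. Like Rrm2 it was lower in each pair and steep between replicates (-0.54 ± 0.0935, adjusted p = 0.0266 with the block and 0.721 without). Its call was lost in the block fit without both replicate 2 libraries (adjusted p = 0.0552) or both replicate 3 libraries (0.122). Ccne2, cyclin E2 (chromosome 4, 11191351 to 11204779, plus strand), had 3.67, 1.45 and 1.07 FPKM with GSK4112, against 5.03, 2.59 and 2.32 FPKM in control. Its difference was -0.53 ± 0.117 with the block (adjusted p = 0.0496), and without the block the adjusted p was 0.497. The call was lost in the block fit without both replicate 2 libraries (adjusted p = 0.112) or both replicate 3 libraries (0.155), and 17.4% of the exon length is shared with Ints8 on the other strand. Its paralog Ccne1 was at 0.868, 0.821 and 0.848 of control and did not pass (-0.12 ± 0.127, adjusted p = 0.592). E2f1, an activating E2F factor, was at 7.28, 2.91 and 3.19 FPKM in GSK4112 and at 8.73, 4.56 and 3.45 FPKM in control. It was lower in each pair without passing (adjusted p = 0.195).

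Other genes of the pathway were taken from 5 lists of 98 genes, of which 90 were tested. In the fit of all libraries without the block no list held a call, and 11 of the 90 were called with it. With the block 3.82% of all genes were called lower and 3.07% higher. When both replicate 3 libraries were left out of the block fit, 0 of the list genes were called. In the mitosis list 8 of 20 fell with the block, 20 of 20 were below control in the mean, and the summed level was 0.744, 0.613 and 0.498 of control in the pairs. Cdk1, the mitotic kinase, was at 10.8, 2.20 and 2.30 FPKM with GSK4112 and at 17.5, 5.66 and 5.16 FPKM in control (-0.87 ± 0.109, adjusted p = 0.0113). Top2a, topoisomerase II alpha (-0.75 ± 0.142, adjusted p = 0.0356), and Ccnb1, cyclin B1 (-0.64 ± 0.109, adjusted p = 0.0257), fell as well. The 20 mitosis genes had a median log2 difference of -0.54, against -0.28 for the 37 replication genes and 0.05 for all genes, and whether the groups differ was not tested.

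Among 28 other replisome and fork genes 25 were tested and none passed in either fit (median log2 difference -0.05). The most abundant was Rnaseh2a, which removes RNA primers, at 24.4, 22.7 and 26.4 FPKM in GSK4112 and 26.5, 35.8 and 31.9 FPKM in control (adjusted p = 0.139 with the block). None of 10 genes of chromatin assembly on new DNA passed, and Ssrp1, a subunit of the histone chaperone FACT, was at 47.5, 42.4 and 46.4 FPKM in GSK4112 and 55.0, 48.3 and 46.1 FPKM in control. Of 12 other nucleotide supply genes 2 fell with the block. Dut, the dUTPase, was at 9.94, 4.23 and 5.25 FPKM in GSK4112, against 16.0, 8.13 and 7.41 FPKM in control (-0.62 ± 0.1025, adjusted p = 0.0238). Samhd1, which breaks deoxynucleotides down and so acts against supply, was at 8.92, 9.11 and 9.72 FPKM in GSK4112 and 14.8, 12.7 and 17.5 FPKM in control. It did not follow the replicate 1 pattern, its groups did not overlap, and its adjusted p was 0.0201 with the block and 0.0714 without.

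In the list of G1 to S control 23 of 28 genes were tested, 0 fell and 1 rose with the block. Over all genes 3.07% were called higher with the block. The median log2 difference was 0.01, with 11 of the 23 below 0. Replicates 2 and 3 alone, with no pairing, gave 1 fall and 0 rises in this list. The rise with the block was that of Cdkn1b, which encodes the cyclin-dependent kinase inhibitor p27. As the most abundant gene of the list on average, Cdkn1b weighs heavily in its sum. It was at 73.3, 196 and 171 FPKM in GSK4112, against 40.2, 138 and 129 FPKM in control (0.59 ± 0.116, adjusted p = 0.0397 with the block and 0.636 without). The order of its libraries was the reverse of that of the replication genes, with both replicate 1 libraries lowest and the GSK4112 library higher in each pair.

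**Figure D4:**
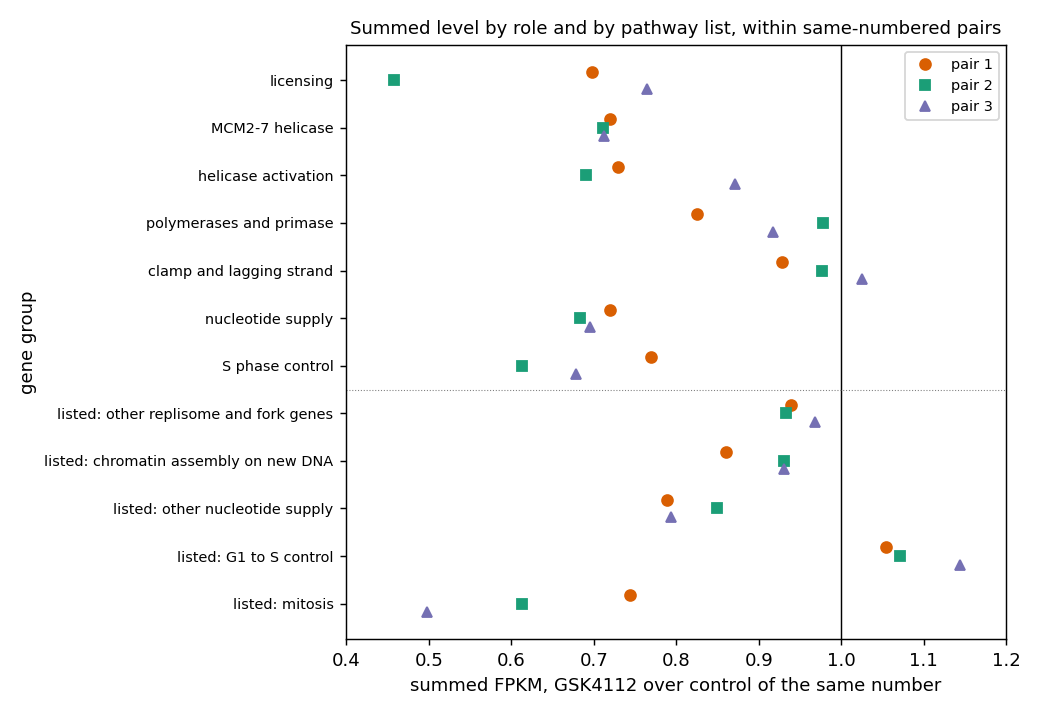
Ratio of summed FPKM in GSK4112 to that in control of the same replicate number, for the 7 roles of the 38 genes (above the dotted line) and the 5 pathway lists (below it). The MCM2-7 points lie together at 0.711 to 0.720, those of the clamp group at 0.928 to 1.03, and the mitosis list between 0.498 and 0.744. The list of G1 to S control, in whose sum Cdkn1b weighs heavily, lies above 1.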

How the data were processed

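RNA-seq of granulosa cells in culture gave 3 GSK4112 and 3 control libraries, grouped by the labels. The authors deposited FPKM values for 27151 Ensembl gene IDs, 1 column per library, each matched by name. The build GRCm38 comes from the submitters' processing notes. No source used here gives the aligner, counter, annotation release or strand setting. GENCODE M21 named 27098 of the IDs, and 53 were not found.

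The 12181 genes whose mean FPKM reached 1 were fitted in limma 3.58.1 (R 4.3.3) on log2(FPKM + 1) with a variance trend, 2-sided, with Benjamini-Hochberg adjustment over all of them at 0.05. Fold changes on this scale understate low genes, and ± beside a log2 difference is limma's SE. FPKM times exon length gave whole fragments (within 0.01) for 92.8 to 93.1% of values below 500 fragments.

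Same-numbered libraries deviated together from their group means (correlations of 0.665, 0.326 and 0.213, each above 0.1). The replicate number was also fitted as a block, though no label gives a pairing. Deviations cancel out within a group, so with replicate 1 apart in both groups these correlations cannot show that replicates 2 and 3 are paired. GSK4112 replicates 2 and 3 correlated better with the other number (0.530 and 0.357). Matches to other genes were found with blastn 2.17.0 at 95% identity over at least 100 bases. Alternatives were other pseudocounts, filters, scalings and variance models, sample weights, limma-voom on the recovered fragments, the block, and each library or same-numbered pair left out. Only the fit without the block was run on simulated data, with independent noise of a common spread and no replicate pattern. The block fits were not tested in this way. Members and lists were chosen with earlier results of these data known. Values in every library are given for members called in either fit, the 2 most abundant of each role and the largest difference in either direction. From each list the text names up to 3 called genes in each direction, or the most abundant.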

Additional observations from a re-analysis of the deposited data

How the results depend on the processing

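No member was called higher under any alternative run. The count called lower, 0 of 37 without a block, was also 0 with other pseudocounts (0.1 and 0.5), filters, scalings, variance models, sample weights or limma-voom without a block, and when each library was left out in turn (0 to 0). It was 7 with the replicate block, 5 without both replicate 1 libraries, 8 with the block and without them, 7 with the block and median-of-ratios scaling, 9 with the block and limma-voom, 4 with the block without both replicate 2 libraries, and 0 with the block without both replicate 3 libraries. The block fits with other scaling, with limma-voom and without pairs 2 or 3 were chosen after seeing the data. Over all genes 126 were called. This became 26 with no filter, 830 with sample weights, 839 with the replicate block, 856 without both replicate 1 libraries, 1139 with the block and without them, 786 with the block and median-of-ratios scaling, 1402 with the block and limma-voom, 614 with the block without both replicate 2 libraries and 0 with it without both replicate 3 libraries, and 0 to 153 leaving out 1 library (8 without control replicate 2, and 0 without control replicate 3, GSK4112 replicate 2 or GSK4112 replicate 3). Of the pathway lists 0 genes were called without the block, 1 with sample weights, 11 with the block, 12 without both replicate 1 libraries, 16 with the block and without them, 11 with the block and median-of-ratios scaling, 16 with the block and limma-voom, 7 with the block without both replicate 2 libraries and 0 with it without both replicate 3 libraries, and 0 to 0 leaving out 1 library. Median-of-ratios scaling put the median difference of all genes at 0.00, against 0.05, and called 39 genes higher and 105 lower, against 50 and 76.

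Signs turned only where the difference was not called in that fit. With 1 library left out no member was called, so a called difference could not turn there. Leaving out each library in turn, the log2 difference ran for Mcm2 -0.72 to 0.16, Mcm4 -0.63 to 0.14, Mcm10 -0.62 to 0.08, Cdc6 -0.62 to 0.09, Cdt1 -0.41 to 0.22, Orc1 -0.03 to 0.21, Gins2 -0.24 to 0.23, Gins3 -0.22 to 0.29, Pola2 -0.10 to 0.36, Prim1 -0.67 to 0.06, Prim2 -0.34 to 0.04, Pold1 -0.42 to 0.09, Pole -0.63 to 0.10, Pcna -0.17 to 0.34, Rfc4 -0.33 to 0.00, Rfc5 -0.45 to 0.12, Lig1 -0.64 to 0.05, Rrm1 -0.52 to 0.00, Ccne1 -0.51 to 0.28, E2f1 -0.62 to 0.05, Uhrf1 -1.18 to 0.03 and Rpa2 -0.35 to 0.10, and the absence of control replicate 1 alone turned 18 of 37. The sign held but the size moved for Mcm3 (-1.05 to -0.14), Mcm5 (-1.09 to -0.08), Mcm6 (-1.06 to -0.27), Mcm7 (-0.52 to -0.22), Rrm2 (-1.53 to -0.06), Ccne2 (-0.88 to -0.26) and Gmnn (-1.42 to -0.78). Otherwise Gins3 turned to -0.01 (median-of-ratios scaling with or without the block, and limma-voom with the block) and -0.17 (block without pair 3), Gins2 to 0.05 and Rfc3 to 0.01 (both replicate 1 libraries left out, with or without the block), Orc1 to -0.05 and Pola2 to -0.01 (block without pair 2) and Rfc2 to -0.02 (block without pair 3). The causes were not tested. Fen1 had the fewest fragments of the members, with 8 to 19 per library.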
